A study of Zea mays with 6 samples.

Results

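The genes described here are a run of maize genes with consecutive identifiers, Zm00001d008874 to Zm00001d009566. They were picked by a measured value: an earlier look at the same 6 libraries found genes changed 2-fold or more between wild-type and GARR2 knockout plants to be dense in this range. Members had to reach a mean of 1 FPKM over the 6 libraries, and genes at 0 in all 3 libraries of a genotype were left out. This gave 238 members, of 21459 genes that pass the same level and zero rule among 44146 listed identifiers. Since the contrast between the genotypes chose the range, fold changes and counts of changed members below are descriptions, without tests, and nothing is read from their number.

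RNA was sequenced from the sheath, the basal part of a grass leaf that encloses the stem, of leaf 2 of untreated maize seedlings at the stage of 3 leaves, grown under normal conditions. The WT group is 3 libraries of wild-type plants, and the GARR2KO group is 3 libraries of GARR2 knockout plants, GARR2 being a long noncoding RNA. How the knockout was made, how many lines or plants each library holds, and whether WT plants were siblings of the knockout is not stated. GARR2 has no named identifier in the files, so the knockout and the tissue could not be checked on marker transcripts, and a change in cell make-up cannot be told apart from a change in RNA per cell.

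A long noncoding RNA is a transcript without a protein product, and such RNAs can act on genes near their own locus or on genes elsewhere in the genome. In the maize B73 annotation used here, identifiers were numbered broadly in the order of the genes along the chromosomes, so close numbers usually stand for neighbouring genes. Neighbours may share regulatory DNA and chromatin, and in crosses they are inherited together. The range was proposed as a block of chromosome 8. That place was not checked, because the gene table used here describes a different assembly (NAM-5.0 of B73), in which 0 of the listed identifiers were found. No gene name, function, coordinate or sequence is therefore given for any member, and order means the order of the numbers.

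The range spans 693 numbers, of which 515 were listed. Of the listed identifiers 158 (30.7%) were at 0 in all 6 libraries, against 29.6% over all listed identifiers. A further 112 were above 0 with a mean under 1 FPKM, and 245 reached it. Of these 245, 5 were at 0 in all WT libraries and 2 in all GARR2KO libraries, which leaves the 238. Over all listed identifiers, 21531 reached the mean of 1 FPKM, and leaving out those at 0 in a whole genotype left 21459. Just above the minimum lay Zm00001d009484, Zm00001d009411 and Zm00001d009183, at means of 1.06, 1.08 and 1.08 FPKM. Just below it lay Zm00001d009540, Zm00001d009121 and Zm00001d009374, at 0.998, 0.953 and 0.946 FPKM.

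FPKM is the number of fragments per kilobase of gene, scaled to the size of the library. Whole reads could be recovered from the values. Over genes seen in at least 3 libraries they summed to between 17720547 and 20719051 per library, of which the members held 165586 to 195972. The sizes that the values were scaled to differed from these sums. In WT replicate 3 the size, 17656864, was below the sum, 17748129, and in the other libraries it was above. A single read added 0.024 to 0.0283 FPKM to a gene of 2 kb. The members held 0.912 to 0.926% of summed FPKM in the WT libraries and 1.005 to 1.027% in the GARR2KO libraries.

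In GARR2KO sheaths, large changes within the block went in both directions, and the strongly changed genes were scattered among genes that changed less. Differences are given as log2 fold changes of log2(FPKM + 1), GARR2KO minus WT, which understate the change of low genes. A member is said to have risen or fallen where its Benjamini-Hochberg adjusted p, from limma-trend over all 21531 genes tested, was under 0.05. By this rule 64 members rose (background 20.1% of all tested genes) and 78 fell (background 24.1%), and 96 were not called. With a change of at least 2-fold, 13 members rose (background 2.01%) and 19 fell (background 2.01%). A further 35 changed by 1.5- to 2-fold (background 8.76%), and 75 by less (background 31.4%). Of the 32 members changed 2-fold or more, 10 changed 4-fold or more (background 0.869%). The 3 GARR2KO values all lay above the 3 WT values for 71 members (background 26.8%) and all below them for 89 (background 29.4%). The median log2 fold change of the members was -0.03, and that of all tested genes -0.01.

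**Figure D1:**
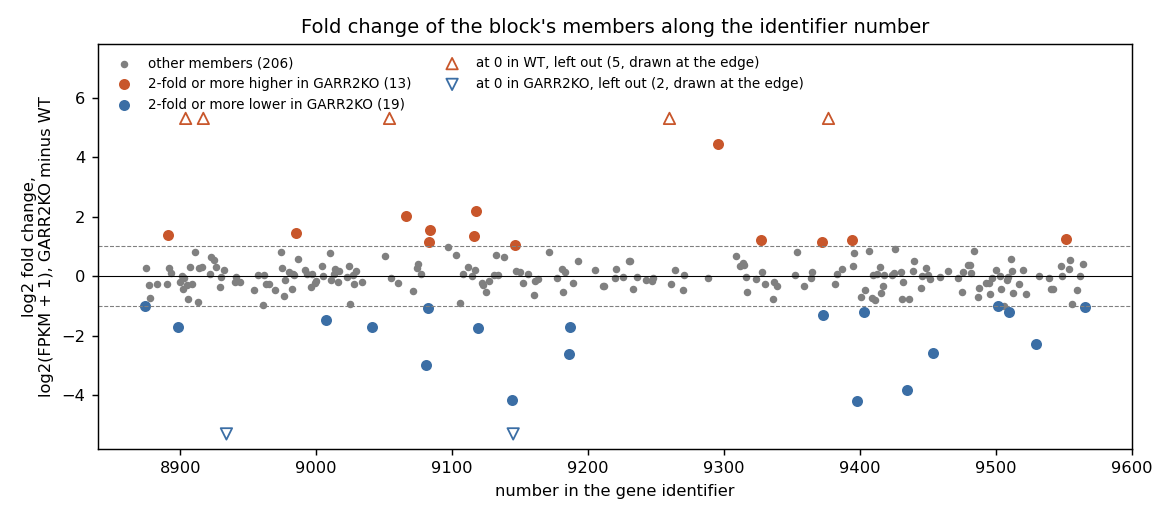
Log2 fold change of log2(FPKM + 1), GARR2KO minus WT (y axis), against the number in the identifier (x axis), for the 238 members. Filled colours mark the 13 members that rose and the 19 that fell 2-fold or more, dashed lines a 2-fold change, and open triangles at the edge the 7 genes left out because a genotype was at 0. Rises and falls are interleaved along the block, and the other 206 members lie between the dashed lines.

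The first 34 members, up to number 8957, held 1 strong rise and 2 strong falls. Zm00001d008874, the first member, measured 16.2, 15.2 and 17.5 FPKM in WT replicates 1 to 3 and 7.72, 6.97 and 8.02 FPKM in GARR2KO replicates 1 to 3, so its log2 fold of -1.01 (SE 0.073) lay just past the 2-fold mark. The range thus opens on a gene that meets the criterion it was picked by. Zm00001d008891 was at 2.28, 1.61 and 2.22 FPKM in WT and at 6.62, 6.58 and 7.63 FPKM in GARR2KO, a log2 fold of 1.39 (SE 0.11). Every GARR2KO library was above every WT library for this gene, and the 3 WT values were all low. Zm00001d008898 was nearly even among WT libraries, at 30.7, 30.3 and 29.6 FPKM. It measured 9.82, 7.02 and 8.89 FPKM in GARR2KO, a log2 fold of -1.72 (SE 0.10).

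After Zm00001d008898 came 37 members in a row without a 2-fold change, the longest such stretch in the block. Between these members lie 3 of the genes left out at 0 in a genotype, Zm00001d008904 and Zm00001d008917, both named after their values were seen, and Zm00001d008934, so the stretch holds for members alone. The stretch includes the abundant Zm00001d008911, which measured 349, 359 and 377 FPKM in WT and 640, 617 and 648 FPKM in GARR2KO. Its rise had a log2 fold of 0.81 (SE 0.050), below 2-fold, and its values did not overlap between genotypes. Zm00001d008985 ended the stretch. It was at 18.7, 19.1 and 19.7 FPKM in WT and at 49.1, 54.9 and 57.9 FPKM in GARR2KO, a log2 fold of 1.44 (SE 0.066). The next strong change went the other way: Zm00001d009007, named after its values were seen, was at 3.72, 3.55 and 4.12 FPKM in WT and at 0.551, 0.632 and 0.967 FPKM in GARR2KO, a log2 fold of -1.49. These 2 genes were the only ones changed 2-fold or more among the 34 members from 8961 to 9027.

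The 34 members from 9028 to 9138 held 9 genes changed 2-fold or more, with 5 up and 4 down, the most of the 7 segments of 34 members. Zm00001d009041 fell from 6.17, 8.17 and 6.40 FPKM in WT to 1.33, 1.18 and 1.80 FPKM in GARR2KO, a log2 fold of -1.70 (SE 0.13). Zm00001d009066 was close to silent in WT, at 0.251, 0.498 and 0.296 FPKM, and measured 4.65, 4.92 and 3.75 FPKM in GARR2KO. This rise, a log2 fold of 2.01 (SE 0.12), rests on 19 reads in WT and 246 in GARR2KO, a ratio of 12.8 (exact 95% interval from counting, 8.04 to 21.7).

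Numbers 9081 to 9084 were 4 consecutive members that all changed 2-fold or more, 2 down and then 2 up. Zm00001d009081 fell from 79.9, 91.4 and 87.7 FPKM in WT to 11.8, 7.14 and 12.2 FPKM in GARR2KO, a log2 fold of -2.97 (SE 0.17). Zm00001d009082 was at 22.1, 24.5 and 26.6 FPKM in WT and at 13.1, 10.3 and 9.82 FPKM in GARR2KO. Zm00001d009083 was at 2.79, 3.90 and 3.62 FPKM in WT and at 10.7, 7.45 and 8.17 FPKM in GARR2KO. These middle genes, named here after their values were seen, had the smaller log2 folds of the 4, at -1.08 (SE 0.11) and 1.13 (SE 0.14). Zm00001d009084 rose from 83.8, 74.0 and 83.2 FPKM in WT to 240.2, 233.4 and 240.8 FPKM in GARR2KO, a log2 fold of 1.56 (SE 0.057). The outer genes of the stretch were thus at similar levels in WT, with means of 86.3 and 80.4 FPKM, and at 10.4 and 238.1 FPKM in GARR2KO.

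Further along the same segment, Zm00001d009116 was at 6.62, 5.60 and 8.20 FPKM in WT and at 16.9, 19.8 and 20.2 FPKM in GARR2KO, a log2 fold of 1.36 (SE 0.12). Zm00001d009118 rose from 3.33, 3.12 and 3.28 FPKM in WT to 19.4, 16.7 and 19.3 FPKM in GARR2KO, a log2 fold of 2.20 (SE 0.074). The member right after it, Zm00001d009119, fell from 5.01, 4.75 and 3.38 FPKM in WT to 0.615, 0.538 and 0.647 FPKM in GARR2KO, a log2 fold of -1.74 (SE 0.13). Its GARR2KO level rests on 14 reads against 102 in WT, a ratio of 7.36 (interval 4.19 to 13.9). In WT these neighbours stood at 3.24 and 4.38 FPKM, and in GARR2KO they were 18.5 and 0.600 FPKM.

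The 34 members from 9144 to 9270 held 1 strong rise and 3 strong falls, all 4 between numbers 9144 and 9187. Zm00001d009144 was at 20.8, 21.3 and 19.6 FPKM in WT and at 0.146, 0.400 and 0.0768 FPKM in GARR2KO. Its log2 fold was -4.17 (SE 0.11), and 799 reads in WT stood against 8 in GARR2KO, a ratio of 101 (interval 50.9 to 234). The next member, Zm00001d009146, named after its values were seen, was at 127, 133 and 133 FPKM in WT and at 278, 263 and 273 FPKM in GARR2KO, a log2 fold of 1.04 (SE 0.045). Between them lies Zm00001d009145, left out because GARR2KO was at 0, so 3 identifiers in a row differed by 2-fold or more here.

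Zm00001d009186 and Zm00001d009187 fell side by side. Zm00001d009186 measured 9.69, 7.66 and 9.21 FPKM in WT and 0.358, 0.729 and 0.754 FPKM in GARR2KO, a log2 fold of -2.61 (SE 0.13). Zm00001d009187, named after its values were seen, was at 15.8, 15.3 and 16.2 FPKM in WT and at 3.80, 4.80 and 3.96 FPKM in GARR2KO, a log2 fold of -1.70 (SE 0.081). Both were lower in every GARR2KO library than in any WT library.

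The largest rise in the block lay in the next segment, numbers 9271 to 9407, which held 4 strong rises and 3 strong falls. Zm00001d009296 was at 5.33, 3.15 and 3.37 FPKM in WT and at 103, 97.2 and 115 FPKM in GARR2KO, a log2 fold of 4.44 (SE 0.15). Its mean FPKM was 26.6 times as high in GARR2KO as in WT. The member after it by number is Zm00001d009309, the most abundant of the block, which measured 600.5, 497.5 and 603.7 FPKM in WT and 903, 870 and 959 FPKM in GARR2KO. Its log2 fold was 0.69 (SE 0.083), and WT replicate 2 was the lowest of the 6 libraries.

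Zm00001d009327 was at 5.51, 3.44 and 5.28 FPKM in WT and at 10.3, 14.9 and 11.5 FPKM in GARR2KO, and its log2 fold of 1.21 had the widest error of the 10 largest rises (SE 0.17). Zm00001d009372 and Zm00001d009373 are neighbours that moved apart, both named after their values were seen. Zm00001d009372 was at 0.396, 0.517 and 0.510 FPKM in WT and at 2.00, 2.15 and 2.58 FPKM in GARR2KO. Zm00001d009373 was at 20.7, 25.5 and 21.3 FPKM in WT and at 10.4, 7.89 and 7.66 FPKM in GARR2KO. Their log2 folds were 1.13 (SE 0.11) and -1.29 (SE 0.12). Zm00001d009394 rose from 10.2, 9.42 and 9.66 FPKM in WT to 25.2, 25.2 and 21.9 FPKM in GARR2KO, a log2 fold of 1.22 (SE 0.069).

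Zm00001d009398 had the largest fall of the block. It stood high in WT, at 295, 265 and 300.3 FPKM, and was at 15.7, 14.4 and 14.6 FPKM in GARR2KO. The log2 fold was -4.18 (SE 0.062), and the mean was 19.3 times as high in WT. The 3 values of each genotype lay close together beside this difference. Zm00001d009403, named after its values were seen, was at 15.4, 14.8 and 12.3 FPKM in WT and at 6.47, 4.62 and 5.51 FPKM in GARR2KO, a log2 fold of -1.22.

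Past number 9407 strong changes were mostly falls. The 34 members from 9409 to 9487 held 2 falls and no rise of 2-fold or more, and the last 34, from 9488 on, held 4 falls and 1 rise. Zm00001d009435 fell from 54.6, 50.4 and 58.9 FPKM in WT to 2.46, 3.34 and 3.07 FPKM in GARR2KO, a log2 fold of -3.82 (SE 0.094). Zm00001d009454 was at 5.08, 6.85 and 4.71 FPKM in WT, at 0 in GARR2KO replicates 1 and 2 and at 0.295 FPKM in replicate 3, a log2 fold of -2.57 (SE 0.16). Its 337 reads in WT compare with 6 in GARR2KO, all in replicate 3, a ratio of 56.7 (interval 25.8 to 156). Had that library also been at 0, the rule would have left this gene out.

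Zm00001d009530 fell from 6.80, 10.2 and 7.34 FPKM in WT to 0.928, 1.07 and 0.586 FPKM in GARR2KO, a log2 fold of -2.28 (SE 0.15). Zm00001d009552 went the other way, from 4.11, 4.16 and 3.42 FPKM in WT to 10.6, 11.8 and 9.33 FPKM in GARR2KO, a log2 fold of 1.24 (SE 0.099). The last member, Zm00001d009566, was at 231, 238 and 258 FPKM in WT and at 128, 107 and 116 FPKM in GARR2KO. Its log2 fold was -1.04 (SE 0.073), so the block ends, as it begins, on a gene just past the 2-fold mark. The remaining strong falls of this segment, Zm00001d009502 and Zm00001d009510, named after their values were seen, had log2 folds of -1.01 and -1.20.

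**Figure D2:**
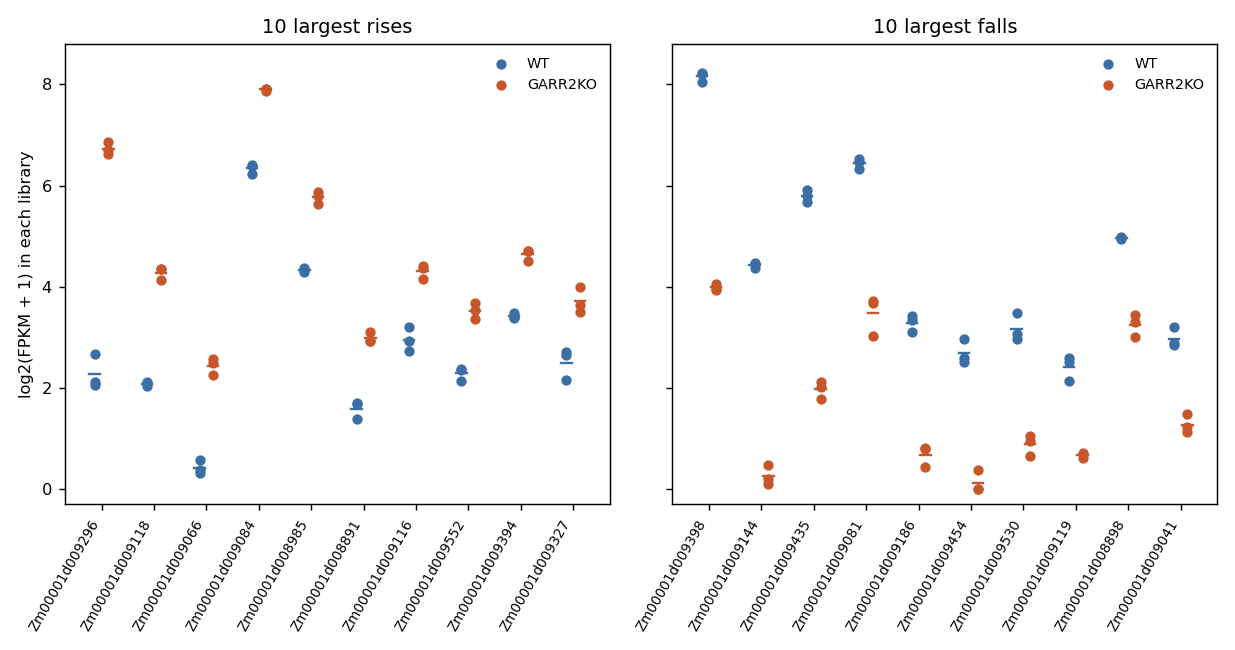
Level in each library, as log2(FPKM + 1) (y axis), of the 10 members with the largest rises and the 10 with the largest falls (x axis, ordered by the size of the change). Points are libraries, 3 per genotype, and short lines their means. The genotypes do not overlap for any of these genes, a condition of being shown, and the falls include 2 genes near 0 in GARR2KO, Zm00001d009144 and Zm00001d009454.

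Of the 32 strongly changed members, 12 stood directly beside another in 5 groups, the run of 4 at 9081 to 9084 and 4 pairs. Over all genes under the same rule, 137 of 792 strongly changed genes had such a neighbour. In the 238 genes before the block 4 of 19 did, and in the 238 after it 2 of 20. The range was picked for the density of such genes, which by itself brings them side by side. The 5 groups in the block hold 7 adjacent pairs, of which 3 went the same way and 4 opposite ways. Taking the 32 in order, a change was followed by one in the same direction 15 times and by the opposite 16 times. Over all genes under the same rule, 74 pairs of genes changed 2-fold or more were adjacent, of which 46 went the same way and 28 opposite ways. Among neighbouring members that were both called at any size, 42 of 77 pairs (54.5%) shared a direction, and over all genes under the same rule 2305 of 4252 pairs (54.2%) did. In the 238 genes before the block 46 of 72 such pairs (63.9%) shared a direction, and in the 238 after it 40 of 66 (60.6%). Whether the adjacent genes are similar copies, between which the counting could split reads, is not known from the files.

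**Figure D3:**
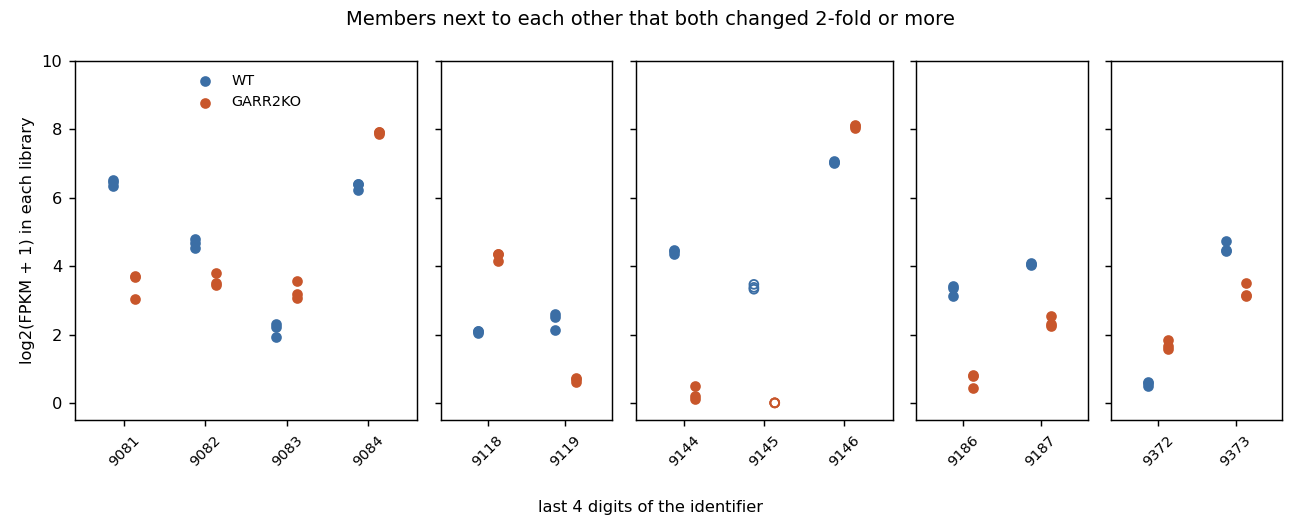
Level in each library, as log2(FPKM + 1) (y axis), for the 5 groups of adjacent members that changed 2-fold or more (x axis, last 4 digits of the identifier). Points are libraries, 3 per genotype, and open points mark Zm00001d009145, which was left out at 0 in GARR2KO. At 9081 to 9084, 2 falls were followed by 2 rises. At 9118 and 9119, 9144 and 9146, and 9372 and 9373 the members moved in opposite directions, and at 9186 and 9187 both were lower in GARR2KO.

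The summed level of the block was higher in each GARR2KO library than in any WT library, by a small margin. The members' FPKM summed to 6133, 5865 and 6162 in the WT libraries and to 6348, 6246 and 6369 in the GARR2KO libraries, with means of 6053 ± 164 and 6321 ± 65.8 (SD, n = 3). The 3 most abundant members made up 1255 ± 76.0 of this in WT and 1777 ± 60.9 in GARR2KO. Without them the sums were 4798 ± 90.2 in WT and 4544 ± 36.9 in GARR2KO, so the direction of the sum turned when these 3 genes were left out. Over all listed genes, FPKM summed to 663643, 633512 and 675513 in WT and to 618107, 621512 and 625428 in GARR2KO. The total was thus also lower in every GARR2KO library. The remaining members' share of it was not computed, so their lower sum is not read as a fall relative to the library. The 3 most abundant members are Zm00001d009309 and Zm00001d008911, described above, and Zm00001d009071. Zm00001d009071 was at 327, 314 and 337 FPKM in WT and at 218, 238 and 237 FPKM in GARR2KO, a log2 fold of -0.50 (SE 0.053).

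Strong changes occurred at every level of expression. Among the 60 members of 1 to 4 FPKM, 5 changed 2-fold or more, where 4.79% of all tested genes of that level did. Of the 98 at 4 to 16 FPKM, 15 did (background 3.83%). Of the 62 at 16 to 64 FPKM, 8 did (background 3.49%), and of the 18 at 64 FPKM or more, 4 did (background 3.91%). Closest to the 2-fold mark on the outside were Zm00001d009097 and Zm00001d009426 among the rises, at log2 folds of 0.98 and 0.90, and Zm00001d009506 and Zm00001d008961 among the falls, at -0.99 and -0.98. Zm00001d008961 had 36 WT and 13 GARR2KO reads and was at 0 in GARR2KO replicate 2.

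**Figure D4:**
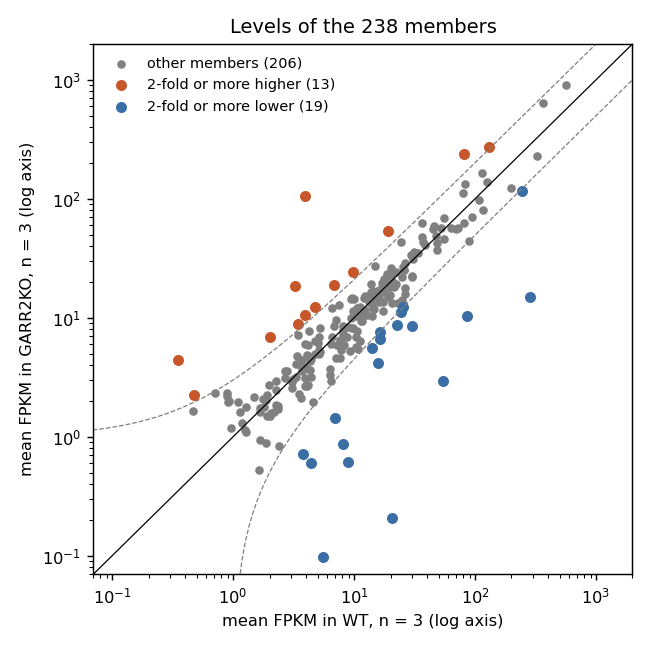
Mean FPKM in GARR2KO (y axis, log scale) against mean FPKM in WT (x axis, log scale) for the 238 members, n = 3 libraries per genotype. The solid line marks equal means and the dashed lines a 2-fold change of the means plus 1. The 32 coloured members lie at all levels, and the 3 most abundant members lie inside the dashed lines.

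The rule set a minimum on the mean level. Above it, the median of the members' mean levels was 10.2 FPKM, with quartiles of 3.99 and 19.8, and that of the 21221 other genes under the same rule was 8.78 FPKM, with quartiles of 3.76 and 21.4. Gene length and the spread between replicates were not used by the rule. Gene lengths recovered from the values had a median of 1762 bp in the block and 1797 bp outside. The standard deviation between libraries of a genotype, on the log2(FPKM + 1) scale, had a median of 0.102 in the block and 0.0944 outside. WT replicate 2 was the lowest WT library for 86 members and the highest for 86. The other libraries were lowest of their genotype for 72 to 83 members and highest for 73 to 82.

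Members changed 2-fold or more had a lower median length than the rest. Their median was 1064 bp, with quartiles of 773 and 1635, and that of the other 206 members was 1845 bp, with quartiles of 1128 and 2973. The same held away from the block, where the median was 1184 bp for 760 genes changed 2-fold or more and 1822 bp for 20461 others. The median level of the strongly changed members was 11.2 FPKM, beside 9.97 FPKM for the other members, and outside the block it was 7.58 FPKM beside 8.81 FPKM. Fewer reads lay behind strongly changed genes, with a median over the 6 libraries of 1412 beside 2173 in the block and 1198 beside 2255 outside. Their spread between libraries of a genotype was wider, with a median standard deviation of 0.151 beside 0.0977 in the block and 0.135 beside 0.0931 outside.

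The edges of the block follow from how it was picked. Right before it lay Zm00001d008871, at a log2 fold of 0.11, and Zm00001d008870, at -0.24. Right after it lay Zm00001d009567, at -0.47, and Zm00001d009568, at 0.79. The nearest gene changed 2-fold or more before the block was Zm00001d008856, 8 genes away, which averaged 2.03 ± 0.38 FPKM in WT and 15.9 ± 0.58 FPKM in GARR2KO (SD, n = 3). The nearest after it was Zm00001d009597, 16 genes away.

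Under the same rule, the 238 genes before the block, numbers 8283 to 8871, held 9 strong rises and 10 strong falls, and the 238 after it, 9567 to 10189, held 11 and 9. These were 7.98% and 8.40% of the genes there, beside 13.4% of the members and 3.58% of all other genes. The median absolute log2 fold was 0.30 in the block, 0.24 before it, 0.25 after it and 0.20 over all other genes. With genes changed 2-fold or more set aside it was 0.25 in the block and 0.19 over all other genes. Setting them aside does not undo the picking of the range by this contrast. No such value was computed for the genes before and after the block. Single segments outside held up to 6 strong changes in 34 genes, at 8432 to 8529 and at 9990 to 10062, beside 2 to 9 in the segments of the block. Another 3 runs were also picked from this contrast, the last of them named as biased towards falls. Numbers 19399 to 19957 held 18 strong rises and 12 strong falls among 158 genes (19.0% changed 2-fold or more). Numbers 20340 to 20588 held 5 and 10 among 105 (14.3%), and 44677 to 44899 held 4 and 11 among 83 (18.1%).

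**Figure D5:**
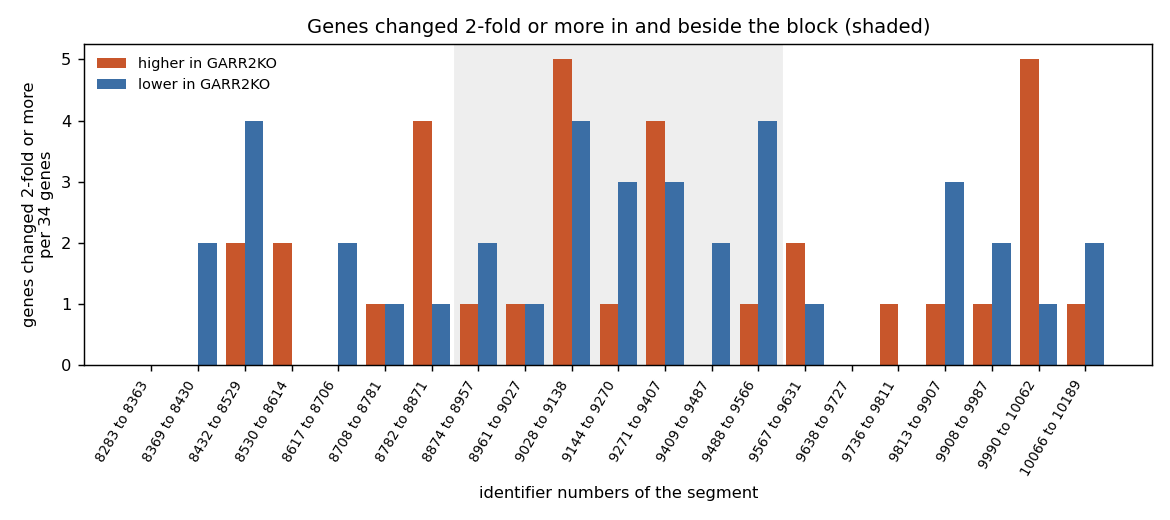
Number of genes changed 2-fold or more (y axis) in segments of 34 consecutive genes under the same level rule (x axis, identifier numbers), higher and lower in GARR2KO, in the block (shaded) and in the 238 genes on each side. The tallest segment, 9028 to 9138, held 5 rises and 4 falls, and segments outside the shading reached 6 in all.

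The 7 genes left out because a genotype was at 0, of 245 that reached 1 FPKM, were spread through the range. Over all listed identifiers, 21459 of 21531 genes at that level were kept by the zero rule. Of the 5 at 0 in WT, the highest by mean FPKM were Zm00001d009054, at 10.8, 11.6 and 11.5 FPKM in GARR2KO, and Zm00001d009377, at 7.56, 8.86 and 6.69 FPKM. Against a floor of 3 reads over the 3 WT libraries, they were at least 394-fold and at least 109-fold higher. The other 3 averaged 3.16 to 6.59 FPKM in GARR2KO. Of these, Zm00001d008917 had only 15 recovered reads in GARR2KO, at 2.00, 2.19 and 6.33 FPKM, and was at least 4.95-fold higher. Its recovered length of 74 bp is below the read length of 150 bp, so its length and reads may have come out too small. Those at 0 in GARR2KO were Zm00001d009145, at 9.02, 9.41 and 10.1 FPKM, and Zm00001d008934, at 2.82, 2.29 and 1.77 FPKM, in WT. They were at least 70.0-fold and at least 60.2-fold lower in GARR2KO, and a level under the floor was not detectable at this depth.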

How the data were processed

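The authors deposited 1 table per library with an FPKM value for each of 44146 identifiers, and the files have no header. TopHat2, Cufflinks, Cuffdiff and the build B73 RefGen_v4 are named per the submitters' processing notes, without versions. The unit was taken as FPKM from these tools, and RPKM would look the same. No annotation release or filter is stated.

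The deposited values were put on the log2(FPKM + 1) scale and fitted with limma 3.58.1 in R 4.3.3 (trended variance, genotype as the only term, 3 libraries per genotype). The fit took in 21531 genes averaging 1 FPKM or more. A gene was called at an adjusted p under 0.05 (Benjamini-Hochberg). The labels call the libraries biological replicates, and the calls measure the spread between these libraries. Reads and gene lengths were recovered as the smallest whole length that made all values of a gene whole reads, within 0.02, which was found for 28353 of 28353 genes above 0 in at least 3 libraries. A gene whose reads share a common factor comes out too short and with too few reads. Intervals are exact (Clopper-Pearson) at 95%, and they and the floor of 3 reads cover counting error only. The scripts were tested on simulated data.

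The members, the segments and the rule for named genes were chosen with earlier results of these data known. Named were the 10 largest rises and 10 largest falls among called members whose values did not overlap between genotypes, the 3 most abundant members, the first and last member, genes beside the minimum level, and at most 2 genes left out at 0 per genotype. Other members were named after their values were seen. Alternatives changed the pseudocount, the minimum level, the scaling, the moderation, the replicate block and the libraries used.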

Additional observations from a re-analysis of the deposited data

How the results depend on the processing

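The 32 members changed 2-fold or more were called in the same direction under every alternative that tested them, with 23 of them tested at a minimum mean of 5 FPKM. Their number became 44 with a pseudocount of 0.1, 43 with voom on recovered reads, 23 with the minimum of 5 FPKM, where fewer genes are tested, and 30 to 35 when each library was left out in turn. Over all tested genes the number moved too. It was 864, and became 1330 with a pseudocount of 0.1, 1376 with voom and 521 with the minimum of 5 FPKM. When each library was left out it was 855 to 900. The block's 13 strong rises numbered 20 with a pseudocount of 0.1 and 20 with voom, and the cause was not tested. The 142 called members ranged from 107, at the minimum of 5 FPKM, to 143, with voom, and from 121 to 133 when a library was left out. Over all tested genes, 9517 were called, 7318 at the minimum of 5 FPKM and 10607 with voom. It was 7943 to 8847 when a library was left out. Falls outnumbered rises among called members by 78 to 64, and by 70 to 69 with scaling by summed reads and 72 to 71 with voom. The median log2 fold of the members moved from -0.03 to 0.02 under both of these alternatives, which were added after seeing the data. The median of all tested genes moved alike, from -0.01 to 0.04 under both. With the minimum set at 0.5 or 5 FPKM the block had 254 or 164 members. The 28 members named by the fixed rule kept their direction in all 405 recomputed values. Their side of the 2-fold mark was not always kept. Without GARR2KO replicate 2, Zm00001d008874 and Zm00001d009566 had log2 folds of -0.96 and -0.98, inside the mark. Both were also inside it without WT replicate 3, at -0.96 and -0.9994, and with scaling by summed reads, at -0.97 and -0.995. So was Zm00001d008874 with quantile normalization, at -0.98, and Zm00001d009566 with voom, at -0.998. With a pseudocount of 0.1, Zm00001d009484 and Zm00001d009411 had log2 folds of 1.63 and -1.53, beyond the mark. The replicate numbers did not pair the libraries, with correlations of -0.051, -0.046 and 0.049 between the deviations of WT and GARR2KO libraries of the same number. With the number as a replicate block 133 members were called, 61 up and 72 down, and 32 changed 2-fold or more. Depth limits the genes near 0, where a level rests on few reads.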
